A study of Mus musculus with 8 samples.

Results

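Tailed miRNA reads are small RNA reads that follow an annotated miRNA hairpin from their first base and then end in bases the hairpin does not encode. They were chosen from the deposited sequences of 20 to 26 nt by one rule. The first 18 nt or more had to be found in one of the 2202 GENCODE mouse miRNA transcripts (2201 genes), the whole length had not to be found in any of them, and the unmatched remainder had to be the last 1 to 3 nt. The rule used sequence alone and no count. It found 10279 distinct tailed sequences among 13958 distinct miRNA-matching sequences, the other 3679 being templated along their whole length. The series held 2419592 distinct sequences, summed over its libraries. Each library held between 1438 and 4639 tailed sequences. Most were rare, since 5879 were counted in 1 library only. Another 297 were counted in all 8 libraries, and these held 58.4% to 73.0% of the tailed reads of a library.

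Small RNA was sequenced from 4 groups with 2 libraries each. Male mouse primordial germ cells (mPGCs) were taken at embryonic stages E12.5, E13.5 as well as E15.5 from the genital ridges of GOF18 animals, which carry a Pou5f1-driven EGFP reporter and no other allele named in the labels. For these cells the labels give C57BL/6J and sorting with SSEA1 and CD61 antibodies, while the methods of the study name a mixed FVB/C57BL/6J line sorted by its EGFP signal, with 2 embryos pooled per replicate and a different litter for each. The fourth group was day 6 mPGCLCs, germ-cell-like cells grown in embryoid bodies from the male embryonic stem cell line SGET (B6CBA/129), gated as Stella-GFP positive and Esg1-tdTomato negative. SGET is a single line, and whether its replicates came from separate cultures is not stated, so p-values measure the spread between these libraries, which may be technical. Strain, sorting and growth in an embryo or in culture all differ between mPGCs and mPGCLCs and cannot be told apart. Libraries held 7447873 to 26552524 reads, of which 402976 to 5682626 matched a miRNA. The E15.5 libraries had the fewest, with 2.96% and 2.504% of their reads against 17.2% to 30.9% elsewhere.

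After Dicer has cut a miRNA from its hairpin, terminal nucleotidyltransferases can add bases to its 3′ end. TUT4 and TUT7 add uridines, read as T in sequencing, and TENT2 (GLD2) adds adenosines. Such tails can mark a miRNA for decay or change its stability, and in embryonic stem cells LIN28 recruits TUT4 and TUT7 to the let-7 precursor. A tail can be seen only where it differs from the next base of the hairpin. A T added before a hairpin T is read as templated. The authors' aligner also allowed at most 2 mismatches to the genome, so a tail of 3 bases that all differ from the genome at that place was lost before deposition.

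The following reads belong to genes the results turn on, and each is shown with its tail in capitals and the templated part in lower case, 5′ to 3′. Mir292 (GRCm38 chr7:3219189-3219270, plus strand) lies in the Mir290 to Mir295 cluster that is typical of pluripotent and early germ cells. Its most counted tailed reads had a templated part that ended at the mature end or 1 base short of it:
miR-292a-5p, 1 base short, A: actcaaactgggggctcttttA
miR-292a-5p, at the mature end, A: actcaaactgggggctcttttgA
miR-292a-5p, at the mature end, T: actcaaactgggggctcttttgT
miR-292a-5p, 1 base short, AA: actcaaactgggggctcttttAA
Mir92-1 (chr14:115044427-115044506, plus strand) shares its reads with Mir92-2 on chromosome X. In every mPGC library it held more of the mixed 2-base tails and AAA tails than any other gene:
miR-92a-3p, A: tattgcacttgtcccggcctgtA
miR-92a-3p, AA: tattgcacttgtcccggcctgtAA
miR-92a-3p, AT: tattgcacttgtcccggcctgtAT
Mir182 (chr6:30165918-30165992, minus strand) showed A and T on the same end:
miR-182-5p, A: tttggcaatggtagaactcacaccgA
miR-182-5p, T: tttggcaatggtagaactcacaccgT
Mir652 (chrX:142739000-142739097, plus strand) was tailed in most of its reads:
miR-652-3p, T: aatggcgccactagggttgtgT
miR-652-3p, A: aatggcgccactagggttgtgA

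A set of 5 related miRNAs ended in the same 6 templated bases, aggtag, and A was the most counted tail of each. They are shown because they include 4 of the 20 most tailed genes:
miR-17-5p, A: caaagtgcttacagtgcaggtagA
miR-20a-5p, A: taaagtgcttatagtgcaggtagA
miR-20b-5p, A: caaagtgctcatagtgcaggtagA
miR-106a-5p, A: caaagtgctaacagtgcaggtagA
miR-93-5p, A: caaagtgctgttcgtgcaggtagA
Their mature forms in RefSeq (GRCm38.p6) share one seed, bases 2 to 8, shown in capitals:
miR-17-5p mature: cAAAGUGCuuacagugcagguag
miR-20a-5p mature: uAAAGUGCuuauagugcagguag
miR-93-5p mature: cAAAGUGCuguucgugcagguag
The other miRNAs whose reads are shown have seeds of their own:
miR-92a-3p mature: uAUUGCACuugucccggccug
miR-292a-5p mature: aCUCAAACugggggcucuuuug
miR-182-5p mature: uUUGGCAAugguagaacucacaccg
miR-652-3p mature: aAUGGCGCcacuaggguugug

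Tails were common in every library, and mPGCLCs had the lowest share. At E12.5, 19.5% and 18.9% of miRNA-matching reads were tailed (19.2% ± 0.466, SD, n = 2). At E13.5 the values were 20.2% and 20.996% (20.6% ± 0.592), and at E15.5 they were 21.9% and 20.7% (21.3% ± 0.890). SGET mPGCLCs had 16.6% and 16.7% (16.6% ± 0.0830), so both libraries lay below all 6 mPGC libraries. Counting error was far smaller than these differences, with 95% Wilson intervals of 21.8% to 22.0% in the shallowest library, E15.5 replicate 1. They describe read sampling alone, because copies made by PCR were counted as reads. The mPGCLC mean was 2.56 percentage points below E12.5 and 3.94 below E13.5, each with p = 0.33 in a two-sided exact permutation test, the smallest p that 2 libraries against 2 allow. E13.5 was 1.37 points above E12.5, also without overlap (exact p = 0.33). The E15.5 and E13.5 libraries overlapped, with a difference of 0.71 points (exact p = 0.667). As a share of all reads of a library, tailed reads overlapped between mPGCLCs and both E12.5 and E13.5, with differences of -0.062 and -0.75 points (exact p = 0.667 each). Counted only among mature miRNAs (a templated part that overlaps a RefSeq mature miRNA by at least 15 nt and stops before the transcript's last base, in a read found whole in no GENCODE transcript), the E15.5 libraries had 21.7% and 18.8%, and the E15.5 mean was 0.67 points below that of E13.5.

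A single A was the commonest tail in every library, and tails of A only, of any length, held 53.3% to 68.5% of tailed reads. Tails of A only made up 13.3% and 12.9% of miRNA-matching reads in E12.5 mPGCs, 13.8% and 14.1% in E13.5 mPGCs, 13.4% and 11.0% in E15.5 mPGCs, and 9.04% and 9.54% in mPGCLCs. Both mPGCLC libraries were below every mPGC library. Tails of T only were higher in mPGCLCs than in the younger mPGCs. They made up 3.13% and 3.09% in E12.5 mPGCs, 3.31% and 3.53% in E13.5 mPGCs, 3.78% and 5.08% in E15.5 mPGCs, and 4.48% and 4.27% in mPGCLCs. The ratio of A to T tails was 4.24 and 4.19 in E12.5 mPGCs, 4.15 and 4.00 in E13.5 mPGCs, 3.55 and 2.17 at E15.5, and 2.02 and 2.24 in mPGCLCs. E15.5 replicate 2 therefore sat with the mPGCLCs and E15.5 replicate 1 nearer to the younger mPGCs. Tails of C only (0.0950% to 0.358%) and of G only (0.158% to 0.309%) were rare in every library. Tails that mix bases made up 2.82% and 2.499% in E12.5 mPGCs, 2.68% and 2.93% in E13.5 mPGCs, 4.14% and 4.17% in E15.5 mPGCs, and 2.49% and 2.40% in mPGCLCs, so they were highest in both E15.5 libraries. The commonest mixed tail was AT, with 0.885% to 2.12% of miRNA-matching reads.

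Single-base tails made up 11.9% to 14.1% of miRNA-matching reads, tails of 2 bases 3.71% to 6.35% and tails of 3 bases 0.810% to 2.498%. Both mPGCLC libraries had fewer tails of 2 bases (3.71% and 3.99%) than any mPGC library (5.07% to 6.35%). For AA alone, the values were 3.60% and 3.06% in E12.5 mPGCs, 3.67% and 3.60% in E13.5 mPGCs, 3.09% and 1.70% in E15.5 mPGCs, and 1.53% and 1.81% in mPGCLCs.

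An A or T at the end was far commoner than the same base as a mismatch inside the read. At positions 9 to 17 of otherwise matching reads, a mismatch to A was found in 0.00511% to 0.0330% of reads per position, and a single A tail was 304 to 1931 times as frequent. For T the ratio was 118 to 1314. For C it was 4.99 to 39.4, and for G only 2.26 to 7.95, with the lowest G ratios in mPGCLCs (2.34 and 2.26). A-to-I editing is also read as G, so the internal G rate need not be sequencing error. How many of the C and G tails are mismatches at the last base was not tested.

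Across 14 classes of tail length and base, the quasi-likelihood test of edgeR (p adjusted after Benjamini and Hochberg) called 0 of 14 classes between E13.5 and E12.5 (percent called 0.0%), where 0 had an unadjusted p under 0.05 and DESeq2 called 0. Between E15.5 and E13.5 it called 1 of 14 (7.14%). This was the class of 2-base mixed tails, which rose by a log2 change of 0.57 ± 0.12 (SE, adjusted p = 0.038). Its values were 1.98% and 2.21% at E13.5 and 2.97% and 3.25% in E15.5 mPGCs, and Mir92-1/Mir92-2 reads made up 32.7% and 37.6% of these tails at E15.5. The call was lost with TMM scaling, among mature miRNAs only, and without either E13.5 library. Without E15.5 replicate 1, 6 classes were called, 4 higher and 2 lower, and without E15.5 replicate 2, 2 were called.

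Between mPGCLCs and E13.5, 4 of 14 classes were called (28.6%), all at an adjusted p of 0.028 by edgeR. Single A tails fell by 0.39 on the log2 scale (SE 0.10) and AA tails fell by 1.12 (SE 0.28). The other pair were GG and GGG tails, which rose by 2.72 (SE 0.57) and 2.81 (SE 0.71). GG tails were 0.0541% and 0.0307% of miRNA-matching reads in mPGCLCs, and Mir5099, which has no mature form in the RefSeq table, held 94.5% and 86.8% of them. Among mature miRNAs only, the GG change was -0.47, the opposite direction. GGG tails rested on 19 and 34 reads in mPGCLCs and 3 and 9 at E13.5. Without any 1 of the 4 libraries compared, edgeR called 0 classes, with 3 or 4 at an unadjusted p under 0.05. The A calls were also lost among mature miRNAs only (log2 changes -0.36 and -1.04, both at an adjusted p of 0.0649 by edgeR) and with TMM scaling, while both kept their direction. Between mPGCLCs and E12.5, edgeR called 0 of 14 classes (0.0%) and 4 had an unadjusted p under 0.05. These were AA (log2 change -0.997), single A (-0.32), single T (0.48) and GG (2.03), with adjusted p of 0.054 to 0.064. DESeq2 called 4 classes there, 1 higher and 3 lower.

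Where the templated part ended also differed. Among tailed reads of mature miRNAs, the templated part stopped at the RefSeq mature end in 42.9% to 48.9% of reads in every library. It stopped short of it in 22.8% and 21.2% in E12.5 mPGCs, 21.9% and 19.2% in E13.5 mPGCs, 19.9% and 14.4% in E15.5 mPGCs, and 33.0% and 34.0% in mPGCLCs, so the mPGCLC libraries were the highest. It ran past the mature end in 20.8% and 21.8% of tailed mPGCLC reads and in 30.4% to 40.8% of tailed mPGC reads. Fully templated reads were also shorter more often in mPGCLCs (24.2% and 25.96%) than in mPGCs (13.8% to 17.4%).

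Both arms of the hairpin were tailed. On the 5p arm the group means were 20.1%, 21.2%, 20.1% and 18.3% in the order E12.5, E13.5, E15.5 and mPGCLCs, and on the 3p arm 19.0%, 20.5%, 20.9% and 15.47%. The mPGCLC libraries lay below both E13.5 libraries on each arm, by 2.89 points on the 5p arm and 5.06 points on the 3p arm (exact p = 0.33 each, the smallest possible). Reads whose templated part ended in G were tailed most in every library (24.1% to 33.3%). T tails after a templated C were 1.81% and 2.29% of reads in E12.5 mPGCs, 2.87% and 3.03% in E13.5 mPGCs, 3.95% and 4.58% in E15.5 mPGCs, and 6.59% and 6.67% in mPGCLCs, with no overlap between any groups. The other last bases did not separate all groups. After a templated A, T tails were 4.74% and 4.81% at E12.5 and 5.68% and 3.85% in mPGCLCs. After G, they overlapped between E15.5 (8.23% and 11.7%) and mPGCLCs (9.99% and 9.76%). After T, mPGCLCs were highest (1.93% and 2.16%), with overlap among mPGC groups.

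Genes were ranked by the mean over the 8 libraries of the percent of their reads that were tailed. Genes that share a read's first 18 nt were kept as 1 group, and 84 of 771 groups had at least 2000 miRNA-matching reads on average and 100 in every library. The median group had between 10.4% and 18.002% of its reads tailed in a library. In the 20 most tailed groups, the mean ran from 94.7% for Mir702 to 28.2% for Mir101b, with Mir361 just outside at 28.1%. The ranking chose these 20, so their high levels are a description. Among mature miRNAs only, 16 of the 20 could be ranked, and Mir361, Mir298, Mir191 and Mir290a took the other places. The main tailed reads of Mir328, Mir143 and Mir320 were matched to no RefSeq mature miRNA.

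Mir702 (chr5:136991433-136991541, plus strand) came first, but in 99.98% of its tailed reads the templated part ran to the last base of the annotated transcript, so whether the genome encodes the next bases was not tested. Its main read was tgcccaccctttaccccgctccAGT, with the unmatched bases in capitals. Mir652 was second. Its tailed percent was 80.2 and 85.6 in E12.5 mPGCs, 93.9 and 81.6 in E13.5 mPGCs, 77.9 and 94.8 at E15.5, and 80.8 and 87.1 in mPGCLCs, and the groups overlapped. T tails held 26.1% and 48.7% of its reads in E12.5 mPGCs, 72.9% and 46.8% in E13.5 mPGCs, 72.3% and 20.9% in E15.5 mPGCs, and 71.3% and 63.9% in mPGCLCs. A tails held 45.2% and 34.8%, 18.5% and 31.8%, 5.22% and 73.5%, and 9.39% and 19.2% in the same order, so for both bases the mPGCLC values lay within the range of the mPGC libraries. Both bases were found in every library, in differing proportion. Neither change between mPGCLCs and E12.5 passed the test (edgeR, ranked gene groups, adjusted p = 0.602 for A and 0.673 for T).

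Next came members of the Mir17-92 cluster and its paralogs, which promote proliferation. Mir17 (chr14:115043671-115043754, plus strand) was tailed in 62.5% and 62.8% of reads in E12.5 mPGCs, 63.4% and 66.4% in E13.5 mPGCs, 70.6% and 95.1% in E15.5 mPGCs, and 49.4% and 31.4% in mPGCLCs. All 6 mPGC libraries were above both mPGCLC libraries. Mir20b (chrX:52742113-52742192, minus strand) followed with 47.6%, 52.7%, 57.0%, 52.9%, 55.4% and 39.2% in the mPGC libraries in that order, and 6.72% and 36.6% in mPGCLCs. Mir20a (chr14:115044157-115044263, plus strand) overlapped between the groups, with 45.1% and 49.4% in E12.5 mPGCs, 39.8% and 55.8% in E13.5 mPGCs, 54.3% and 20.8% in E15.5 mPGCs, and 30.8% and 44.9% in mPGCLCs.

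Mir106a (chrX:52742503-52742567, minus strand) differed in its tail base. A tails made up 85.4% and 42.2% of its reads in E12.5 mPGCs, 41.8% and 62.3% in E13.5 mPGCs, and 46.8% and 39.9% in E15.5 mPGCs, but 0.233% and 0.0717% in mPGCLCs. These last values are 3 A-tailed reads among 2254 Mir106a reads. Pooled, the mPGCLC share was 0.00267 times that at E12.5 (exact 95% counting interval 0.000551 to 0.00782). The interval describes read sampling alone, with PCR copies counted as reads, and not the spread between libraries. The 2 mPGCLC libraries themselves differed. In replicate 1, T tails made up 58.2% and AGT tails 41.6% of 859 reads, each a single distinct sequence, while in replicate 2 the fully templated read made up 99.4% of 1395 reads.

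Other genes of the 20 had their own bases. Mir320 (chr14:70443510-70443591, plus strand), which is cut without Drosha, carried T in 19.2% and 19.5% of reads in E12.5 mPGCs, 15.1% and 15.9% in E13.5 mPGCs, 17.8% and 45.4% in E15.5 mPGCs, and 11.8% and 19.1% in mPGCLCs. A tails stayed at or below 1.81% in each library. Mir143, a miRNA of smooth muscle, carried T (mean 36.1%) and A in only 0.06% on average. For both Mir320 and Mir143, A was the hairpin base after the templated part of the main tailed read. An A added there cannot be seen, so the low A values need not mean that A was not added. Mir200c (chr6:124718322-124718390, minus strand), a miRNA of epithelial cells, carried A in 27.4% and 22.7% in E12.5 mPGCs, 43.5% and 29.6% in E13.5 mPGCs, 18.8% and 16.9% in E15.5 mPGCs, and 2.60% and 3.59% in mPGCLCs. Mir296 was tailed in 98.5% of reads in E15.5 replicate 2 and in 42.4% to 65.8% elsewhere. Mir328 went the other way, with 1.72% in E15.5 replicate 2 and 47.4% to 58.2% elsewhere. Mir433 ran from 0.518% to 98.6% within mPGCs, on 147 to 3262 reads. Mir101b was more tailed in both mPGCLC libraries, with 36.2% and 57.1%, than in any mPGC library, where it had 18.4% and 24.5% in E12.5 mPGCs, 23.6% and 23.9% in E13.5 mPGCs, and 18.03% and 24.2% in E15.5 mPGCs. Its A tails were 0.0% and 50.9% and its T tails 35.8% and 6.08% in mPGCLCs, so the replicates differed in base. Mir484 was also higher in mPGCLCs (41.8% and 49.2%) than in every mPGC library (29.6% to 40.2%). The remaining members were Mir877, Mir127, Mir92b, Mir409, Mir291b and Mir292. Their means over the libraries lay between 29.3% and 56.7%, and 14.4% of the tailed Mir877 reads also ended at the transcript's last base.

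Of the 20, 8 were higher and 3 lower at E13.5 in both libraries than in both at E12.5, and of all 84 it was 26 and 10. For E15.5 against E13.5 the 20 gave 3 higher and 2 lower, and the 84 gave 10 and 16. For mPGCLCs against E12.5 the 20 gave 6 higher and 9 lower, and the 84 gave 11 and 33. Against E13.5 they gave 4 and 8, and 12 and 32. In mPGCLCs the lower groups thus outnumbered the higher ones among all ranked genes, with median differences of -2.83 and -3.95 points. Both mPGCLC comparisons use the same mPGCLC libraries. In the test over all 639 gene and tail base features, edgeR called 0.0% in each of the 4 comparisons, with 28, 22, 69 and 63 features at an unadjusted p under 0.05 in the order above. DESeq2 called 8, 4, 48 and 38.

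Split by base, A features had the lowest median among the ranked gene groups in mPGCLCs. Of 82 A features of the ranked gene groups, 66 had a fitted value below E12.5 and 16 above it, with a median log2 change of -0.78, against -0.46 over all 320 features of those groups. Both mPGCLC libraries were below both E12.5 libraries in 38 A features and above them in 3, beside 92 and 46 of all 320 features. Of 71 T features, 30 were fitted below and 41 above, with a median of 0.59, and 14 were below and 17 above without overlap. Against E13.5, 65 of 82 A features were fitted below (median -0.84), and T features were even at 35 below and 36 above (median 0.01). Features of C, G and mixed tails also had medians below 0, of -0.70, -0.60 and -0.33 against E12.5 and -0.41, -0.48 and -0.65 against E13.5. T features were not higher among all 639 features tested. There, 83 of the 168 T features were fitted below E12.5 and 83 above it, and 96 were below E13.5 and 70 above it, with a median of -0.32. Of the 210 A features, 160 were fitted below E12.5 and 161 below E13.5, with medians of -1.24 and -1.62, beside -0.78 and -0.84 over all 639.

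Tested on the 320 features of the ranked gene groups alone, a choice made after seeing the data, edgeR called 1 feature between mPGCLCs and E12.5 (0.312%), the A tails of Mir106a (adjusted p = 0.0385). Between mPGCLCs and E13.5 it called 2 (0.625%), Mir106a A (adjusted p = 0.0425) and Mir92-1/Mir92-2 A (log2 change -1.18 ± 0.22, SE, adjusted p = 0.0425). Without any 1 of the libraries compared, Mir106a A was no longer called by edgeR, with adjusted p of 0.0965 to 0.374 against E12.5 and 0.113 to 0.225 against E13.5. Mir92-1/Mir92-2 A was called only without mPGCLC replicate 2 (adjusted p = 0.0128), and without any of the other 3 libraries its adjusted p by edgeR was 0.182 to 0.225. Over all 639 features, edgeR gave an adjusted p of 0.0724 and 0.0863 for Mir106a A and 0.248 for Mir92-1/Mir92-2 A against E13.5. DESeq2 gave 0.685 for the latter on the ranked gene groups. A tails of Mir92-1/Mir92-2 made up 19.7% and 16.4% of its reads in E12.5 mPGCs, 20.96% and 21.2% in E13.5 mPGCs, 26.6% and 19.6% in E15.5 mPGCs, and 7.20% and 11.4% in mPGCLCs, on 58208 or more reads in each library, so both mPGCLC libraries lay below every mPGC library. Its T tails lay between 0.577% and 0.967%, and a T added before the T of the Mir92-1 hairpin cannot be seen.

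Mir292, the gene of the 20 with most reads (425546 on average), was tailed in 27.5% and 27.2% of reads in E12.5 mPGCs, 32.0% and 33.1% in E13.5 mPGCs, 36.0% and 30.4% in E15.5 mPGCs, and 25.97% and 22.1% in mPGCLCs. Its A tails were lower in mPGCLCs (16.9% and 14.5%) than in every mPGC library (19.1% to 23.8%), a log2 change of -0.57 ± 0.14 (SE) against E13.5 that did not pass the test (edgeR, ranked gene groups, adjusted p = 0.128). Its T tails were 5.08% and 4.95% in E12.5 mPGCs, 6.94% and 5.72% in E13.5 mPGCs, 7.82% and 9.86% in E15.5 mPGCs, and 7.11% and 5.84% in mPGCLCs. Mir182, of a cluster known from sensory organs, carried A in 9.28% and 10.4% in E12.5 mPGCs, 12.9% and 12.7% in E13.5 mPGCs, 17.2% and 10.5% in E15.5 mPGCs, and 5.93% and 5.41% in mPGCLCs, again with both mPGCLC libraries lowest (log2 change -1.18 ± 0.30 against E13.5, adjusted p = 0.136). Its T tails were 5.66% and 15.46% at E15.5 and 3.41% to 4.89% elsewhere. Mature miR-182-5p has 25 nt, so under the limit of 26 nt only tails of 1 base were counted at its mature end.

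Families were compared by the share of their summed reads. The Mir290 to Mir295 genes, which hold 25.2% of miRNA-matching reads on average, were tailed in 22.1%, 26.9%, 28.0% and 19.2% of reads in the order E12.5, E13.5, E15.5 and mPGCLCs. Tailing was uneven within the cluster. Mir290a had 15.9% to 41.0% of its reads tailed, whereas Mir293 and Mir294 each averaged 2.40% and came last of the 84. The Mir17-92 genes and paralogs had 25.0%, 28.0%, 32.2% and 13.4%, and both mPGCLC libraries (12.0% and 14.8%) were below every mPGC library (24.4% to 35.5%). Mir182, Mir183 and Mir96 together had 13.0%, 15.6%, 23.2% and 8.65%. The let-7 family, which promotes differentiation, had 11.2%, 13.8%, 13.3% and 6.28%, with both mPGCLC libraries (6.67% and 5.90%) below every mPGC library (10.9% to 14.3%). This did not hold for let-7 group II, which here leaves out Mirlet7e but keeps reads shared between the genes of both groups, where mPGCLCs had 8.44% and 0.815% and E12.5 mPGCs 5.48% and 7.97%. T tails of the whole let-7 family were 3.92% and 2.73% in E12.5 mPGCs and 2.67% and 3.17% in E13.5 mPGCs. They were 2.82% and 0.486% in E15.5 mPGCs and 0.0493% and 3.48% in mPGCLCs. For the whole family the mPGCLC replicates thus lay far apart, with one of them the lowest of all libraries. In group II, T tails were 0.0548% and 0.0651% in mPGCLCs and 0.0658% to 1.47% in mPGCs. For Mirlet7d, Mirlet7g and the group shared by Mirlet7a and Mirlet7c, T was the hairpin base after the templated part of the main tailed read. A T added there cannot be seen, so low T values in group II need not mean that T was not added. For Mirlet7e, which group II leaves out, that base was G, and T tails held 6.00% of its reads on average. No let-7 gene was among the 20 most tailed. Mir302 and Mir367 had only 304 to 13145 reads in a library and no ranked gene. The most abundant members weigh most in such sums. In the test over all features, edgeR called 0 features of any family.

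The cells and libraries also differed in other ways. The list of pluripotent and early germ cell miRNAs, of which 8 of 8 had reads, held 26.3% and 25.7% of miRNA-matching reads in E12.5 mPGCs, 20.2% and 19.4% in E13.5 mPGCs, 14.3% and 11.6% in E15.5 mPGCs, and 32.5% and 33.7% in mPGCLCs. In such bulk samples, fewer cells of a type and less RNA per cell cannot be told apart. Mir202, of the gonadal soma, held 0.0630% to 0.171% at E12.5 and E13.5, 0.206% and 0.437% in E15.5 mPGCs, and 0 reads in mPGCLCs. Blood miRNAs held at most 0.0727% except in E15.5 replicate 2, with 0.405%, and the vessel marker held 0.197% there against at most 0.0429% elsewhere. That library also had the highest values of Mir17, Mir296 and Mir320 and the lowest of Mir328, and Mir193b held 98.5% of its TTT tails. Of 5 listed blood miRNAs, 2, 5, 4 and 2 had reads in the order E12.5, E13.5, E15.5 and mPGCLCs. The liver marker Mir122 was instead highest in E15.5 replicate 1 (0.0400%), with 0.00015% in E15.5 replicate 2 and at most 0.00243% elsewhere. The part of these differences in the tail values was not tested. At E15.5, 0.297% and 0.882% of miRNA-matching reads were tailed reads found whole in another GENCODE transcript or RefSeq window, against 0.0219% to 0.0895% in the other libraries.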

How the data were processed

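Small RNA libraries of 8 samples, in 4 groups of 2 by their labels, were analysed. The authors used cutadapt 3.2 to remove adapters plus the random terminal bases, aligned whole reads against GRCm38 using STAR 2.5.3a (up to 2 mismatches, 1 random place per multimapping read), and the deposited values are read counts per distinct sequence, PCR copies included. HiSeq and NovaSeq instruments are named without being assigned to libraries. The members and lists were chosen with earlier results of these data known.

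Sequences were matched exactly to GENCODE M21 miRNA transcripts, leaving out those with an N (122 to 447 reads per library). A check of each tail against the genome had been planned and was not run, since no genome was used here, so the rule stands as written and tailed reads were searched in GENCODE M21 transcripts, RefSeq hairpins and promoter windows only. Tail classes, and counts of each gene group and tail base, were tested by the quasi-likelihood method of edgeR 4.0.16 under R 4.3.3 (all groups in one fit, miRNA-matching reads or the gene group's reads as offset, Benjamini-Hochberg adjustment). DESeq2 1.42.0 was an alternative. Percents were compared by two-sided exact permutation tests in Python 3.11.15 with scipy 1.17.1. In data simulated for mPGCLCs against E12.5 with a fold of 4 and the real dispersion, edgeR recovered 25% of 4 changed classes among 14 and 0% of 127 changed features among 639. At a dispersion of 0.05 it recovered 100% and 80.3%. The smallest percent that 3 counts can show lay between 5.3e-05% and 0.00074% of miRNA-matching reads.

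The text names the 20 most tailed gene groups, and members of the let-7, Mir290 to Mir295 and Mir17-92 lists with at least 2000 reads on average. Up to 3 features per direction with an adjusted p under 0.05 were also to be named, and there were none. Other named genes were chosen after their values were seen. Denominator, prefix, tail length, count minimum, normalization, test and replicates were varied.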

Additional observations from a re-analysis of the deposited data

How the results depend on the processing

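The lower tailed percent of mPGCLCs against E12.5 and E13.5, and the higher one at E13.5 against E12.5, kept their direction under every alternative run, but not their size. With all reads of the library as denominator they were -0.062, -0.75 and 0.69 points, with overlapping groups (exact p = 0.667 each), and with tails of 1 nt only -0.86, -1.84 and 0.978. With 2 libraries a group the exact test cannot pass 0.05, so its p says nothing about stability. The difference between E15.5 and E13.5 turned to -4.41 points with all reads of the library as denominator, to -1.28 as an unweighted mean over gene groups and to -0.67 among mature miRNAs only. The first of these counts the small miRNA share at E15.5, and the cause of the others was not tested. Leaving out 1 library gave 0.952 to 1.79 points (E13.5 against E12.5), 0.0798 to 1.34 (E15.5 against E13.5), -2.89 to -2.24 (mPGCLCs against E12.5) and -4.35 to -3.52 (mPGCLCs against E13.5).

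Tail classes called between E15.5 and E13.5 were 2 with at least 10 counts or DESeq2, and 0 among mature miRNAs, with TMM, with a replicate block or in a fit of the 2 groups only, against 1. Between mPGCLCs and E12.5 they were 4 with DESeq2 or in a fit of the 2 groups, against 0. Between mPGCLCs and E13.5 they were 1 with TMM and 0 with at least 10 counts, among mature miRNAs or with the replicate block, against 4. Without 1 library the counts ran from 0 to 6 for E15.5 against E13.5 and were 0 in the other comparisons.

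Features called, 0 in each comparison, became 8, 4, 48 and 38 with DESeq2 in the order E13.5 against E12.5, E15.5 against E13.5, and mPGCLCs against E12.5 and E13.5. With no filter 1, 4 and 3 were called in the last 3 of these. On ranked gene groups only, 1 and 2 were called for mPGCLCs, and with DESeq2 2, 2, 29 and 18. Of these 3 edgeR calls, the Mir92-1/Mir92-2 A call held without mPGCLC replicate 2, and none held without any other library. Without 1 library the counts were 0, 0 to 19 (19 without E15.5 replicate 1), 0 to 5 and 0 to 4. The cause was not tested.

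Among single classes, the GG change of mPGCLCs turned to -0.98 against E12.5 and -0.47 against E13.5, and the GGG change at E15.5 to -0.17, among mature miRNAs only. Without 1 library, the single A change at E15.5 ran from -0.27 to 0.041, the AAA change at E13.5 from -0.023 to 0.42 and the AAA change at E15.5 from -0.82 to 1.14.

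Same-numbered libraries share only a number. The correlation of their deviations ran from -0.50 to 0.63 over classes and from -0.018 to 0.11 over features. The replicate block left the tailed percent differences at 1.37, 0.71, -2.56 and -3.94 points, and called 0 features.

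Depth limits E15.5 most, with 402976 and 664752 miRNA-matching reads, and 32.1% to 55.0% of the distinct tailed sequences of a library were counted once. Setting aside sequences found whole in the genome was not run, since no genome was used here.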
